A study of Caenorhabditis elegans with 3 samples.

Results

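The dosage compensation complex (DCC) of Caenorhabditis elegans lowers transcription of both X chromosomes in XX hermaphrodites, so that X-linked output matches that of XO males. It joins a condensin core to X-recruitment factors and chromatin-modifying subunits, and it loads at recruitment elements on X (rex sites) before it spreads along the chromosome. SDC-2 is the hermaphrodite-specific protein that triggers loading on X, whereas several other subunits are supplied maternally and also serve in mitotic or meiotic condensin. The 10 genes that encode subunits of the complex were selected by name (sdc-1, sdc-2, sdc-3, dpy-21, dpy-26, dpy-27, dpy-28, dpy-30, mix-1 and capg-1) and found by their WormBase identifiers. They occupied 11 of the 40669 rows of the authors' table. All 10 genes passed the filter used for comparison (rows with a named gene whose 3 values averaged 1 FPKM or more), as did 15628 rows in all.

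Poly(A) RNA was sequenced from embryos of 3 genotypes. Wild type was strain N2 (5 replicates in the labels). The 8rex deletion was strain TY5827 (5 replicates), which lacks 8 rex sites on X through the alleles y572 of rex-32, y743 of rex-33, y738 of rex-14, y671 of rex-47, y737 of rex-8, y741 of rex-43, y742 of rex-48 and y740 of rex-35. The DCC mutant was strain TY0810 (3 replicates), with the sdc-2 allele y93, fed bacteria for sdc-2 RNAi; the other genotypes were fed HT115 bacteria with the empty vector pL4440. All worms thus grew on RNAi plates. The question was how each mutant's expression differed from wild type. The table held 1 combined FPKM value (a level scaled to transcript length and library size) per genotype and row, so no value below has a replicate spread, and the depth of the libraries is unknown. Embryos of mixed stages, bleached from gravid hermaphrodites and for the most part not yet at the comma stage, made up 2 replicates of every genotype. Older embryos made up 3 replicates of wild type, 3 of the 8rex deletion and 1 of the DCC mutant; they came from young adults 68 to 70 hours after L1 larvae were plated and were kept at 20 °C for 7 to 8 hours, by when most were elongated embryos near the end of morphogenesis. Older embryos were thus 60% and 33.3% of the replicates of wild type and the DCC mutant.

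Stage markers were looked at beside this difference in stage, which cannot be told apart from the genotype. Of 12 rows of oocyte and early embryo genes, 11 were higher in value in the DCC mutant than in wild type, beside 48% of all rows. The median difference was 1.14 in log2(FPKM + 1), 5 rows had an authors' p under 0.05 (all higher; 2.07% of all rows tested), and their summed level was 709 FPKM for wild type, 737 for the 8rex deletion and 1371 for the DCC mutant. The 10 rows of late embryo muscle and cuticle genes summed to 10159.7, 10415 and 8156 FPKM. The collagen genes sqt-3 and dpy-17, singled out after their values were seen, made up 9103 FPKM of that in wild type and 7030 in the DCC mutant, while the 8 other rows summed to 1056 and 1126 FPKM. The list had a median difference of -0.06 in the DCC mutant with 4 of 10 rows above 0, and the row with an authors' p under 0.05 was that of myo-2, an X-linked pharyngeal myosin gene, at 36.2 and 93.1 FPKM (2.57-fold higher, the authors' p = 0.0015). Of 8 regulators of embryonic lineages, 7 were measured, with a median difference of 0.07 in the DCC mutant and -0.06 in the 8rex deletion. In the 8rex deletion 1 of 6 tested rows had an authors' p under 0.05, beside 0.459% of all rows tested. It was that of elt-2 with elt-4, at 35.3 FPKM for wild type, 202 for the 8rex deletion and 40.8 for the DCC mutant (the authors' p = 5e-05). None of 6 yolk protein genes of the adult intestine exceeded 0.992 FPKM in any genotype. Whether the stage difference takes part in the values of the subunit genes was not tested. In whole embryos, fewer cells of a type and less RNA per cell cannot be told apart.

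Of the 10 subunit genes, 6 had a row with no other gene on their own strand and 4 were seen there only together with neighbours, although 1 of these, dpy-26, also had a row of its own. Row numbers in the table ran along each chromosome in 3 blocks, and the first and second matched the annotated plus and minus strands at 35519 of 35672 single-gene rows (99.6%). The rows of sdc-1, sdc-2, dpy-21, dpy-27, dpy-28 and mix-1 lay in the block of their own strand. The row that held dpy-26 alone did not. It was numbered among plus-strand rows, although dpy-26 (WBGene00001085, IV, 12445801 to 12451335) lies on the minus strand. A second dpy-26 row, shared with C25G4.3 and spe-44, was numbered among minus-strand rows. The single-gene row is therefore treated below as an opposite-strand row rather than as the level of dpy-26, and the reads behind it cannot be assigned to a strand from the table.

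Merged rows held genes that lie near one another on the same strand. The dpy-26 row joined a gene that overlaps dpy-26 by 84 bp (C25G4.3) with spe-44, a regulator of sperm genes, and dpy-26 made up 64.6% of its annotated exon length. The sdc-3 row (V, 15039148 to 15048207 for sdc-3) also held mcm-3 (15056719 to 15059599), a subunit of the replicative helicase. The spans of sdc-3 and mcm-3 do not touch, and sdc-3 made up 71.6% of the exon length. The dpy-30 row (V, 12191519 to 12192385 for dpy-30) held rnp-1, which overlaps dpy-30 by 113 bp and encodes an RNA-binding protein, and ogdh-2, and dpy-30 made up only 11.6%. The capg-1 row (I, 7634492 to 7639785 for capg-1) held ncbp-2, which encodes a subunit of the nuclear cap-binding complex, F26A3.1 and the piRNA gene 21ur-12960, and capg-1 made up 63.3%. The FPKM of these rows covers all of their genes, so it gives no level for the subunit gene itself.

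**Figure D1:**
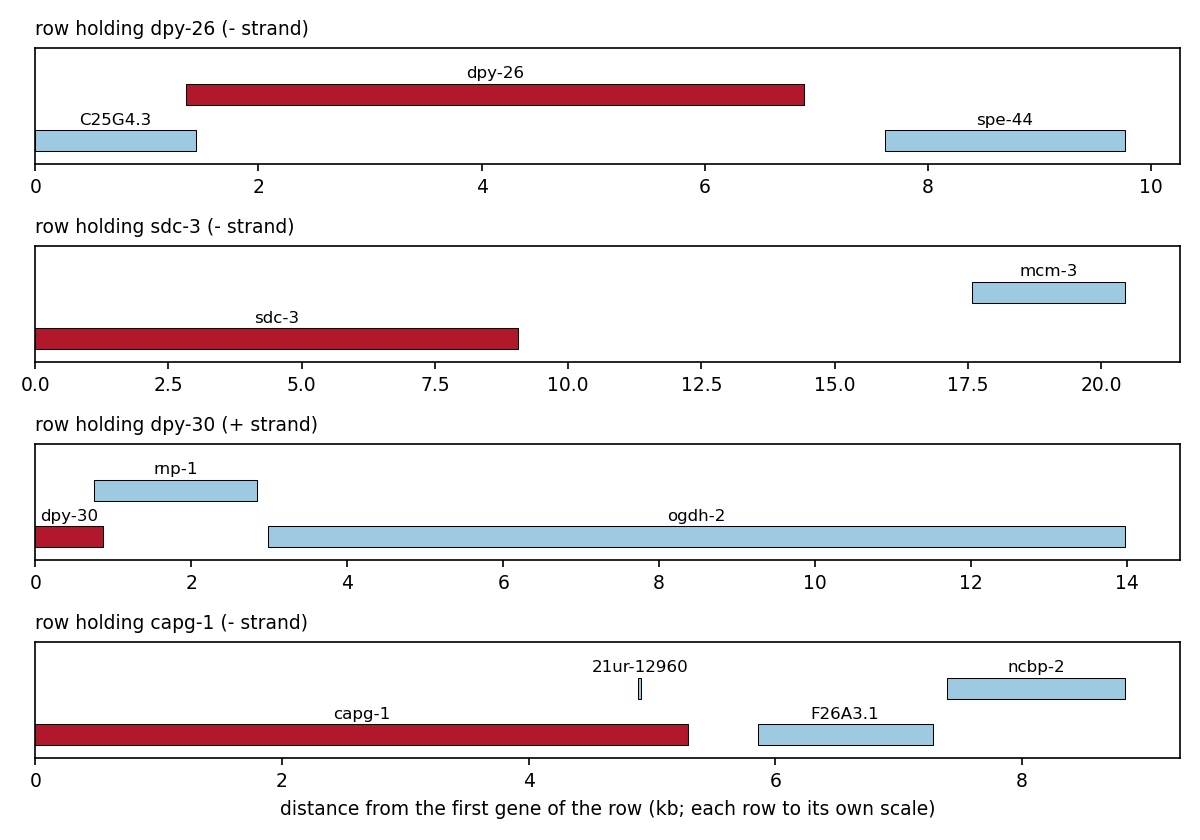
Annotated spans of the genes in the 4 merged rows, drawn as distance in kb from the first gene of each row, each row to its own scale; the subunit gene is red and the genes that share its row are blue. The dpy-30 span is the shortest of its row, while capg-1, sdc-3 and dpy-26 take most of the exon length of theirs (63.3%, 71.6% and 64.6%).

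The condensin core was measured most directly through dpy-27, mix-1 and dpy-28, which differed little between genotypes. DPY-27 is the SMC subunit used in condensin only for dosage compensation. The authors' value for dpy-27 (WBGene00001086, III, 3813018 to 3819679, minus strand) was 115 FPKM for wild type, 110.3 for the 8rex deletion and 107 for the DCC mutant. Wild type was highest and the DCC mutant lowest, 1.08-fold apart, and the authors' deposited table gave p = 0.763 for the DCC mutant and p = 0.829 for the 8rex deletion. MIX-1 is the SMC partner of DPY-27 and is shared with the mitotic condensins. The authors' value for mix-1 (WBGene00003367, II, 10824246 to 10841424, plus strand) was 66.7, 61.3 and 71.0 FPKM in the same order, with p = 0.893 for the DCC mutant and p = 0.846 for the 8rex deletion in the authors' deposited table. The DCC mutant was highest here, 1.06-fold above wild type.

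DPY-28 is a HEAT-repeat subunit of both the dosage compensation condensin and condensin I. Its gene (WBGene00001087, III, 10763131 to 10777076, plus strand) had the most even values of the family, with 29.1 FPKM for wild type, 28.7 for the 8rex deletion and 28.5 for the DCC mutant. The p given by the authors' deposited table was 0.946 for the DCC mutant and 0.950 for the 8rex deletion. The non-SMC subunits DPY-26 and CAPG-1 were seen only through merged rows. The row of dpy-26 with C25G4.3 and spe-44 stood at 74.5, 72.8 and 74.8 FPKM (the authors' p = 0.989 for the DCC mutant and 0.936 for the 8rex deletion). The row of capg-1 with its neighbours stood at 548, 474 and 555 FPKM (the authors' p = 0.985 and 0.842 in the same order). The 8rex deletion was the lowest genotype in both rows. The opposite-strand row of dpy-26 stood at 13.7 FPKM for wild type, 8.64 for the 8rex deletion and 7.78 for the DCC mutant, so it was highest in wild type, yet the authors' p was 0.752 and 0.716 for the 8rex deletion and the DCC mutant.

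**Figure D2:**
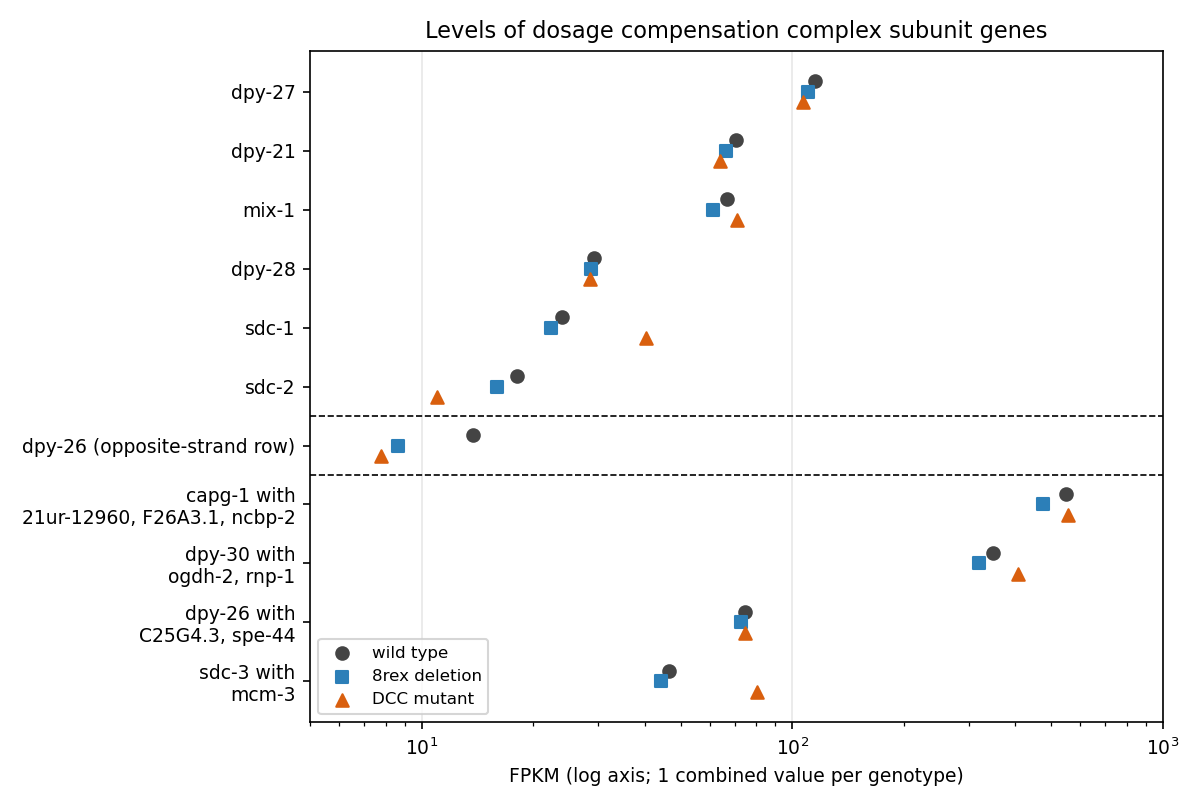
FPKM on a log axis for the 11 rows that hold a subunit gene; each point is the authors' combined value for 1 genotype (circle wild type, square 8rex deletion, triangle DCC mutant), with no error since replicates were combined. Rows above the upper dashed line hold the subunit gene alone on its own strand, the row between the lines is the opposite-strand row of dpy-26, and the rows below are merged. The DCC mutant stands apart upward at sdc-1 and the sdc-3 row and downward at sdc-2.

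DPY-21, a Jumonji-domain demethylase that turns dimethylated histone H4 lysine 20 on X into the monomethylated form, was measured at a row of its own (dpy-21, WBGene00001080, V, 17936282 to 17949193, minus strand). The authors' values were 70.4 FPKM for wild type, 66.2 for the 8rex deletion and 63.9 for the DCC mutant, with p = 0.692 for the DCC mutant and p = 0.762 for the 8rex deletion in the authors' deposited table. Wild type was highest and the DCC mutant 1.10-fold lower. DPY-30, which is shared with the COMPASS complexes that methylate histone H3 lysine 4, was part of a row at 349, 319 and 407 FPKM. That row was highest in the DCC mutant (1.17-fold above wild type), with an authors' p of 0.714 for the DCC mutant and 0.801 for the 8rex deletion.

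The SDC proteins recognise X. SDC-2 and SDC-3 are needed for loading of the condensin subunits, and SDC-1, a zinc-finger protein, acts with them both on X and at the sex-determination gene her-1. Both sdc-1 and sdc-2 are X-linked, so they lie on the chromosome the complex acts on. They stood, for the DCC mutant, on opposite sides of wild type. The gene targeted in that mutant, sdc-2 (WBGene00004746, X, 11522707 to 11533450, plus strand), stood at 18.0 FPKM for wild type, 16.01 for the 8rex deletion and 11.0 for the DCC mutant. The DCC mutant was lowest, 1.64-fold below wild type (the authors' p = 0.505 in their deposited table) and 1.46-fold below the 8rex deletion. The authors' p of the 8rex deletion against wild type was 0.824. The row start of sdc-2 was shared by 5 rows and lay upstream of the gene. Shared starts were also found at other subunit rows, as for mix-1 (7 rows), both rows of dpy-26 (7 rows) and dpy-30 (8 rows). The antisense RNA gene anr-16, which overlaps sdc-2 by 1650 bp, was listed at 0 FPKM in wild type and the DCC mutant and at 1.02 FPKM in the 8rex deletion.

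The value of sdc-1 (WBGene00004745, X, 16275763 to 16282534, plus strand) was 24.0 FPKM for wild type, 22.4 for the 8rex deletion and 40.4 for the DCC mutant. The DCC mutant was the high genotype, 1.68-fold above wild type (the authors' p = 0.0852) and 1.80-fold above the 8rex deletion, while the 8rex deletion and wild type lay 1.07-fold apart (the authors' p = 0.785). The level of sdc-1 was 1.33 times that of sdc-2 in wild type, 1.40 times in the 8rex deletion and 3.68 times in the DCC mutant. The row of sdc-3 and mcm-3, on chromosome V, stood at 46.5, 44.4 and 80.2 FPKM, again with the DCC mutant high, 1.73-fold above wild type (the authors' p = 0.144; 0.894 for the 8rex deletion). The MCM genes were looked up after the values of this row were seen. In the DCC mutant the rows of the 5 other MCM genes were between 1.45 and 1.92 times wild type, with an authors' p between 0.0583 and 0.456. Of these rows, that of mcm-4 was merged with icp-1 and gives no level for mcm-4 itself. How much of the difference of the row of sdc-3 and mcm-3 belongs to mcm-3 was not tested.

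Among the 6 subunit genes measured alone on their own strand, levels per length in wild type fell in the order dpy-27, dpy-21, mix-1, dpy-28, sdc-1 and sdc-2, and the level of dpy-27 was 6.40 times that of sdc-2. The 8rex deletion had the same order. The DCC mutant differed in that mix-1 stood above dpy-21 and sdc-1 above dpy-28, and dpy-27 was at 9.76 times sdc-2. With 1 value per genotype there is no spread to say which neighbours in these orders differ. Relative to the 15628 rows compared, wild-type dpy-27 lay at or above 90.8% of rows, dpy-21 84.3%, mix-1 83.4%, dpy-28 66.9%, sdc-1 62.9% and sdc-2 56.7%. For the DCC mutant the figure was 73.5% for sdc-1 and 47.6% for sdc-2.

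None of the 11 subunit rows had an authors' p under 0.05 in the DCC mutant comparison (lowest 0.0852, lowest q 0.9999), where 2.07% of the 9509 rows tested did, so none would be a usual count for 11 rows. Differences were then taken as log2(FPKM + 1), which understates the change of low genes. The 7 single-gene rows had a median of -0.11, between -0.75 for the opposite-strand row of dpy-26 and 0.73 for sdc-1, with 2 above 0 (48% of all rows) and 5 below. The median over all rows was 0.00. Without the opposite-strand row the median of the 6 others was -0.07, and with each of the 10 genes taken from its highest row, merged rows included, it was 0.01. Of the 7 rows, 3 were past 1.5-fold (sdc-1 higher, sdc-2 and the opposite-strand row of dpy-26 lower), beside 36% of all rows.

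The sizes that the authors' test called give a scale for these values. The single-gene subunit rows had wild-type levels between 13.7 FPKM (the opposite-strand row of dpy-26) and 115 FPKM. At single-gene rows in that range, 70 of 4682 tested rows had an authors' p under 0.05 in the DCC mutant. The smallest fold among those 70 was 1.71, and their median was 2.49. The folds of sdc-1 (1.68) and sdc-2 (1.64) were under that smallest size, so a change of their size was not called at any row of this range in the authors' deposited table.

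**Figure D3:**
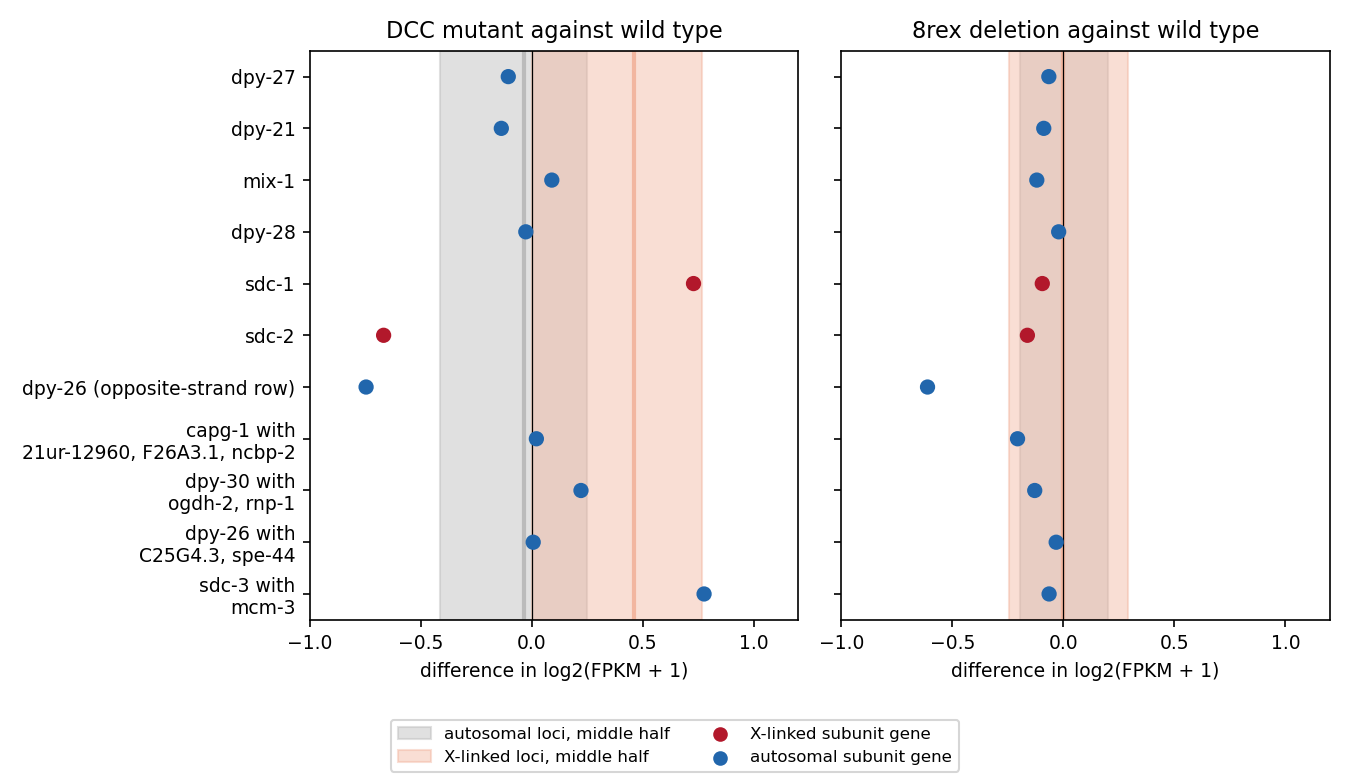
Difference in log2(FPKM + 1) from wild type for the 11 subunit rows, in the DCC mutant (left) and the 8rex deletion (right). Red points are X-linked and blue points autosomal subunit genes, shaded bands span the interquartile range of all X-linked and all autosomal rows and the vertical coloured lines are their medians. In the DCC mutant sdc-1 lies at 0.73 within the X-linked band and sdc-2 at -0.67 below both bands, while in the 8rex deletion all points are below 0.

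Against other X-linked rows, the difference of sdc-2 stood low and that of sdc-1 did not. X-linked rows as a group were higher in the DCC mutant, with a median of 0.46 over 2939 rows, and 39.3% of them were past 1.5-fold higher. The difference of sdc-1, 0.73, was at or above 72.3% of X-linked rows. That of sdc-2, -0.67, was at or above 14.1% of X-linked rows and at or above 3.76% of the 1782 X-linked rows with a single protein-coding gene, where the median was 0.56. It thus lay 1.22 below the median of those rows. The 10 nearest such rows, 5 on each side within 108 kb of sdc-2, all had higher values in the DCC mutant than in wild type. They lay between 0.40 and 0.94 with a median of 0.70. Of all 2939 X-linked rows, 70.3% were above 0 too. That share includes merged and non-coding rows, whereas the neighbours are rows with a single protein-coding gene, for which no such share is given here. The count alone therefore does not set these neighbours apart. Among them were selt-1.1, at 167 FPKM (wild type) and 279 FPKM (DCC mutant), and mig-2, which encodes a Rac-like GTPase, at 179.9 and 238 FPKM. Others were low, as F29G6.1 at 1.38 and 2.92 FPKM and F46C3.7 at 1.72 and 3.28 FPKM. The 10 nearest rows of sdc-1, within 61.6 kb, were mixed, with a median of 0.16. Of them 7 were above 0 and 2 were above sdc-1 itself. The 70.3% over all X-linked rows is no matched share for these neighbours either, so their count is not compared. They included F52E10.2, at 0 FPKM in wild type and the DCC mutant, and W10G6.1, at 8.07 and 0 FPKM. The nearby taf-3, a general transcription factor gene, stood at 63.9 and 111 FPKM. In the 8rex deletion, the medians of these neighbours were -0.08 for sdc-2 and -0.12 for sdc-1.

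**Figure D4:**
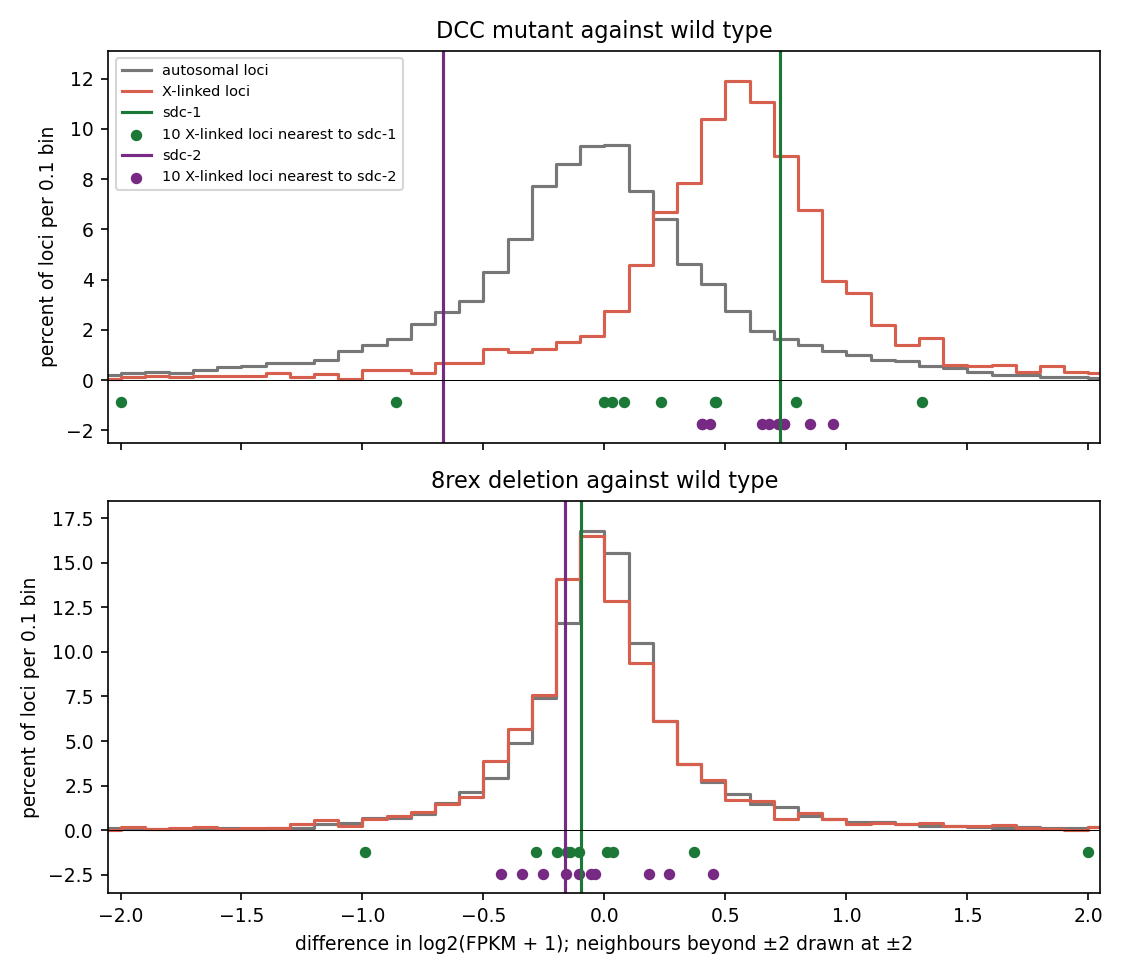
Distribution of the difference in log2(FPKM + 1) from wild type over rows with a single protein-coding gene, as percent of rows per bin, for X-linked (red) and autosomal (grey) rows, with the DCC mutant above and the 8rex deletion below; the axis stops at 2 in each direction. Vertical lines mark sdc-1 (green) and sdc-2 (purple) and dots under the curves mark the 10 nearest X-linked rows of each. In the DCC mutant the line of sdc-2 is at -0.67 while its 10 neighbours lie between 0.40 and 0.94.

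Every subunit row had a lower value in the 8rex deletion than in wild type. All 11 rows were below 0, beside 50.5% of all rows, and stayed so with either other pseudocount setting and both other scalings tried. The values were small. The 7 single-gene rows had a median of -0.10, where all rows had -0.0035, and 10 of the 11 rows lay between -0.21 and -0.02. The remaining row, the opposite-strand row of dpy-26, was at -0.61 and was the only 1 past 1.5-fold, beside 24.3% of all rows. None of the 11 had an authors' p under 0.05, where 0.459% of 9378 tested rows did, and the lowest p was 0.752. The rows share libraries and 2 of them share a gene, so they are not independent measurements of the genotype.

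The DCC mutant was also set against the 8rex deletion, a comparison for which the authors' table has no test. It shares the DCC mutant values with the comparison above. The 7 single-gene rows had a median of -0.04, and sdc-1 (0.82) was the only 1 past 1.5-fold, beside 39.6% of all rows. The difference of sdc-2 was -0.51, that of mix-1 0.21 and that of dpy-28 -0.01.

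Genes that work with the subunits are given from lists of named partners. Of the 4 rows of condensin partners outside dosage compensation, only that of capg-2 held the partner gene alone. The merged rows give no level for their partner gene. The 4 rows differed from wild type by -0.03 to 0.42 in the DCC mutant and by -0.33 to -0.08 in the 8rex deletion. SMC-4 replaces DPY-27 in the mitotic condensins, but smc-4 shared its row with pan-1, wdr-48, erh-2 and F35G12.12, at 281 FPKM for wild type, 264.9 for the 8rex deletion and 274 for the DCC mutant. The condensin II gene capg-2 had a row of its own at 25.2, 19.8 and 28.2 FPKM (the authors' p = 0.749 for the DCC mutant), while hcp-6 with trf-2 stood at 33.1, 29.7 and 44.7 FPKM and kle-2 with ran-2 and C29E4.12 at 116.2, 105 and 119 FPKM. None of these 4 rows was past 1.5-fold in either mutant, beside 36% of all rows in the DCC mutant and 24.3% in the 8rex deletion. None had an authors' p under 0.05, beside 2.07% and 0.459% of rows tested, and with so few rows these counts do not set the list apart.

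The 6 rows of COMPASS genes, the other complex of DPY-30, were near wild type in the DCC mutant, with a median difference of 0.12 and a range from 0.02 to 0.32. The authors' values for ash-2 were 43.1, 43.9 and 52.4 FPKM and those for rbbp-5 32.6, 26.2 and 37.5 FPKM, in the order wild type, 8rex deletion and DCC mutant. The row of wdr-5.1 and dph-1 stood at 86.0, 97.8 and 107 FPKM and that of cfp-1 and F52B11.2 at 103, 107 and 105 FPKM. SET-1 and SET-4 methylate H4K20, the residue on which DPY-21 acts. The set-1 row on its own strand stood at 157, 149 and 173 FPKM, and set-4 at 39.7, 40.1 and 40.7 FPKM. No row of these lists had an authors' p under 0.05 in either mutant, a usual count for 9 rows beside 2.07% of all rows tested in the DCC mutant and 0.459% in the 8rex deletion.

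The rows of 5 SUMO pathway genes had higher values in the DCC mutant, none of them past the authors' test at 0.05. Conjugation of SUMO to DCC subunits is needed for assembly of the complex on X. The 5 rows were above 0, beside 48% of all rows, with a median of 0.52, and 2 were past 1.5-fold higher, beside 17.6% of all rows. The gene of SUMO itself, smo-1, stood at 489 FPKM for wild type, 458 for the 8rex deletion and 870.1 for the DCC mutant (the authors' p = 0.131). The E2 enzyme gene ubc-9, in a row with F29B9.5, stood at 107, 122 and 167 FPKM (the authors' p = 0.141), uba-2, a gene of the E1 enzyme, at 24.9, 22.7 and 36.1 FPKM (p = 0.290), and its partner aos-1 at 35.2, 32.8 and 41.3 FPKM (p = 0.657). The row of gei-17, a SUMO ligase gene, with nduf-7 was nearly level at 241.7, 245 and 247.2 FPKM (the authors' p = 0.940). The oocyte and early embryo genes were also higher in the DCC mutant (median 1.14), and their part in these values was not tested.

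**Figure D5:**
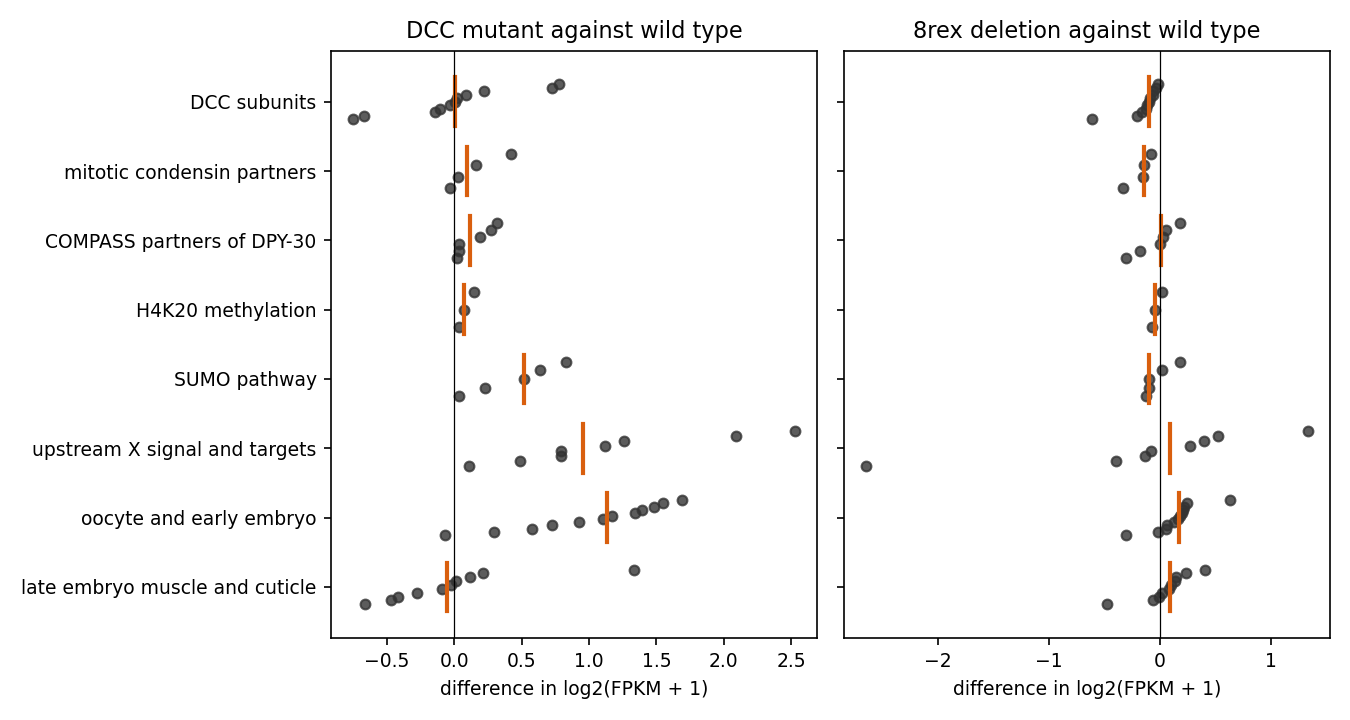
Difference in log2(FPKM + 1) from wild type in the DCC mutant (left) and the 8rex deletion (right). Measured rows of the subunit genes, of partner lists and of the early and late embryo markers are drawn, without the lineage regulators. Each dot is 1 row, merged and opposite-strand rows included, and the orange bar is the median of the list. In the DCC mutant the medians of the condensin, COMPASS and H4K20 lists are between 0.07 and 0.12 and that of the oocyte and early embryo list is 1.14.

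Genes upstream and downstream of sdc-2 were higher in value in the DCC mutant, where X-linked rows as a group were higher too. The switch gene xol-1, which represses sdc-2 in males, stood at 0.978 FPKM for wild type, 1.84 for the 8rex deletion and 7.41 for the DCC mutant, and her-1, the male-fate gene that the SDC proteins repress, at 48.5, 6.92 and 284 FPKM (the authors' p = 0.202 and 0.223 for the DCC mutant). The rows of the X and autosomal signal genes, xol-1 and her-1 numbered 8. All were above 0 in the DCC mutant, beside 48% of all rows. Of them, 1 had an authors' p under 0.05, beside 2.07% of rows tested. The 4 rows of xol-1, sex-1, fox-1 and ceh-39 are X-linked, and 70.3% of all X-linked rows were above 0 in this mutant and 4.08% of those tested had an authors' p under 0.05. The row that did was X-linked too, fox-1 with R04B3.7, at 87.9, 116 and 153 FPKM in the 3 genotypes. Autosomal rows were those of the autosomal signal genes sea-1 and sea-2 (the latter with an opposite-strand row) and of her-1. The rows of ceh-39 with its neighbours ceh-21 and T26C11.9 and of sea-1 stood at 40.7, 38.4 and 89.5 FPKM and at 10.1, 12.3 and 25.5 FPKM (the authors' p = 0.135 and 0.156).

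The rows most like sdc-2 were sought among the 10836 other rows with a single protein-coding gene, by Euclidean distance over the 3 values of log2(FPKM + 1). The closest were C07E3.9 on chromosome II, at 17.8, 16.1 and 10.6 FPKM (distance 0.052), the BMP modulator gene crm-1 on chromosome V, at 17.4, 15.9 and 11.0 FPKM (distance 0.053), and F23C8.3 on chromosome I, at 18.6, 16.7 and 11.4 FPKM (distance 0.088). Within a distance of 0.2 there were 20 rows, so the 3 values single out no partner of sdc-2.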

How the data were processed

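Per the submitters' processing notes, cutadapt 1.2.1, TopHat2 2.1.1, Cufflinks 2.2.1 and the build ce11 were used; their settings, annotation and use of strand: not given in the sources used here. Each row has 1 FPKM value per genotype, deposited with replicates already combined. The authors also deposited log2 fold changes (mutant over wild type, no pseudocount) and, per the file headers, a p-value and q-value from a test that the headers do not name. A p of 1 was read as untested. Symbols, strands and coordinates came from Ensembl release 115 (assembly WBcel235, that is ce11; 1-based).

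No replicate values were present, so no test was made here. Rows naming a gene and averaging 1 FPKM or more were kept (15628, of which 1673 hold several genes), and differences were taken as log2(FPKM + 1). A row is called past 1.5-fold on that scale. An exact 0 can be a failed estimate. Members and lists were chosen with earlier results of these data known. Named genes are all members and the genes in their rows, up to 4 per partner list by the authors' smallest DCC mutant p, smc-4, xol-1, her-1 and the 3 rows nearest to sdc-2. The MCM genes, anr-16, the X neighbours, gei-17, myo-2, elt-2 with elt-4, sqt-3 and dpy-17 were added after values were seen. Steps were tested on simulated data. Python 3.11.15, numpy 2.4.6, pandas 2.3.3 and matplotlib 3.10.9 were used.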

Additional observations from a re-analysis of the deposited data

How the results depend on the processing

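Pseudocounts of 0.1 and 0 FPKM, centring on the autosomal median and equal FPKM totals kept the sign of each of the 3 medians over single-gene rows and each count of rows past 1.5-fold. A further setting took each of the 10 genes from its highest row, merged rows included. The median over the subunit genes then turned from -0.11 to 0.012 in the DCC mutant against wild type. Against the 8rex deletion it turned from -0.04 to 0.12, and the count past 1.5-fold went from 1 to 2. In the 8rex deletion against wild type that count went from 1 to 0 in this setting, where the merged row of dpy-26 replaced its opposite-strand row. It also went to 0 when the opposite-strand row was left out, an alternative chosen after seeing the data. These changes follow from which rows enter. Single rows near 0 changed sign with scaling, as dpy-28 did in the DCC mutant (-0.05 to 0.01). The place of sdc-2 among X-linked rows moved from 14.1% to 3.76% when only rows with a single protein-coding gene were used. Against the 8rex deletion it moved from 19.5% to 6.29%. Without the filter, 17.5%, 12.9% and 19.2% of rows were past 1.5-fold in the 3 comparisons. No paired analysis was possible because the table holds 1 combined value per genotype, and for the same reason no replicate could be left out. Depth is unknown.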

Other observations

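A row numbered in the block of the strand opposite to its gene was found at 153 of the 35672 single-gene rows checked. Besides dpy-26, 2 partner genes had such a row next to one on their own strand. For set-1 the opposite-strand row had the higher level, at 412 FPKM for wild type, 399 for the 8rex deletion and 432 for the DCC mutant by the authors' values. For the autosomal signal gene sea-2 it stood at 6.29, 17.3 and 6.89 FPKM, and the own-strand row, shared with K10G6.11, at 219.9, 167 and 381 FPKM. The strand of the reads was not analysed here.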
